A study of Mus musculus with 4 samples.

Results

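Cytosolic ribosomal protein genes encode the proteins of the large (60S) and small (40S) subunits of the ribosome that translates nuclear-encoded mRNA. Their members were taken as the rows whose symbol has the form Rpl or Rps followed by a number, with an optional paralog letter or suffix, together with Rplp0, Rplp1, Rplp2 and Rpsa. Rows marked as pseudogenes ("-ps") were left out. This gave 85 of the 21993 genes in each file, 52 of the large and 33 of the small subunit. Of these, 82 averaged 1 FPKM or more across the 4 libraries and were tested, and the other 3, Rpl10l, Rpl3l and Rpl39l, were not. FPKM is the number of fragments per kilobase of transcript, scaled to the mapped fragments of the library, so levels of different genes are compared here per length.

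The libraries were made from cells labelled as uterine NK cells, sorted by flow cytometry for NK1.1 and CD45 and against CD3, from uteri of pregnant females at gd11.5 (gd, gestational day) that had been mated with B6 males. There were 2 libraries of mice carrying Ncr1Cre, a Cre recombinase driven from Ncr1, the gene of the NK-cell receptor NKp46, and 2 libraries of mice without Cre, called the control here. The labels do not tell if the 2 libraries of a genotype are separate animals, so the spread behind each p-value here may be technical. All differences are Ncr1Cre minus control.

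Each ribosome holds 1 copy of nearly every ribosomal protein, and cells keep the synthesis of these proteins in balance. Vertebrate mRNAs of ribosomal proteins begin with a terminal oligopyrimidine tract, a run of C and T at the very start of the transcript, through which mTORC1 signalling and the RNA-binding protein Larp1 control their translation. The acidic stalk proteins (Rplp0, Rplp1, Rplp2) recruit elongation factors, and a few members have paralogs that can replace them in some tissues. Many processed pseudogenes carry near-identical copies of these mRNAs, so reads can be split between a gene and its copies.

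The labelled cell type was checked against marker genes. Of the 12 NK-cell markers, 6 were tested and 4 rose. The 12 summed to 50.1 and 50.3 FPKM in Ncr1Cre and to 29.9 and 32.1 FPKM in the control. Ncr1 was low in all libraries, at 0 and 0.15 FPKM in Ncr1Cre and 0.14 and 0.36 in the control. Klrb1c, the gene of NK1.1, stood at 0.92 and 0.67 against 0.45 and 0.97. Epithelial, stromal, smooth-muscle, erythroid and trophoblast lists stood above the NK-cell list in all 4 libraries, and those of T cells and endothelium below. The 8 epithelial markers, of which 8 rose, summed to 48266 and 51245 FPKM in Ncr1Cre and to 10016 and 10132 in the control. Prap1, a secreted protein of the uterine epithelium, carried most of this sum, at 46369 and 49335 FPKM against 9530 and 9667, and the other 7 markers summed to 1897 and 1910 against 486 and 465. The 10 stromal and fibroblast markers, of which 1 rose and 9 fell, summed to 14568 and 14576 against 32655 and 33215. Smooth-muscle markers fell in 6 of 6 (177 to 180 FPKM against 543 to 550 summed), and macrophage and dendritic cell markers rose in 6 of 7 tested (96.4 to 97.4 against 28.6 to 30.8 summed over 8). Erythroid markers rose in 4 of 4 tested (666 and 784 FPKM against 69.2 and 77.3 summed), and trophoblast markers in 3 of 3 tested (590.2 and 658 against 165 and 190 summed), with Gcm1 listed at 0 in all libraries. The part of these differences in the ribosomal protein values was not tested. In such bulk samples, fewer cells of a type and less RNA per cell cannot be told apart.

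Ribosomal protein mRNAs were abundant in all 4 libraries. Together they made up 11.26% and 11.78% of the summed FPKM of the Ncr1Cre libraries and 11.26% and 11.04% of that of the control (11.52% ± 0.37 and 11.15% ± 0.16, SD, n = 2). The lower Ncr1Cre value and the higher control value were alike to 2 decimals, and an exact permutation test of 2 against 2 libraries gave p = 0.3333, two-sided, the smallest it can give. The summed FPKM itself was larger in Ncr1Cre, at 51823 and 55172 against 43343 and 43799, and so was the sum over all genes (460108 and 468192 against 384852 and 396770). The denominator mattered. Without the 50 highest other genes, the shares were 16.7% and 17.7% in Ncr1Cre and 15.7% and 16.04% in the control (exact permutation p = 0.3333).

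The balance of the subunits differed between genotypes by less than the spread of replicates. Large-subunit genes took 56.3% and 56.5% of the summed ribosomal protein FPKM in Ncr1Cre and 56.0% and 56.6% in the control (exact permutation test, two-sided, p = 1), with overlap of the genotypes. Per gene, small-subunit mRNAs stood higher, with a median of 704 and 768 FPKM in Ncr1Cre and 548 and 565 in the control. The large-subunit median was 514 and 537 FPKM in Ncr1Cre and 394 and 413 in the control. Between 75 and 78 of the 82 tested members reached 100 FPKM in a given library.

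**Figure D1:**
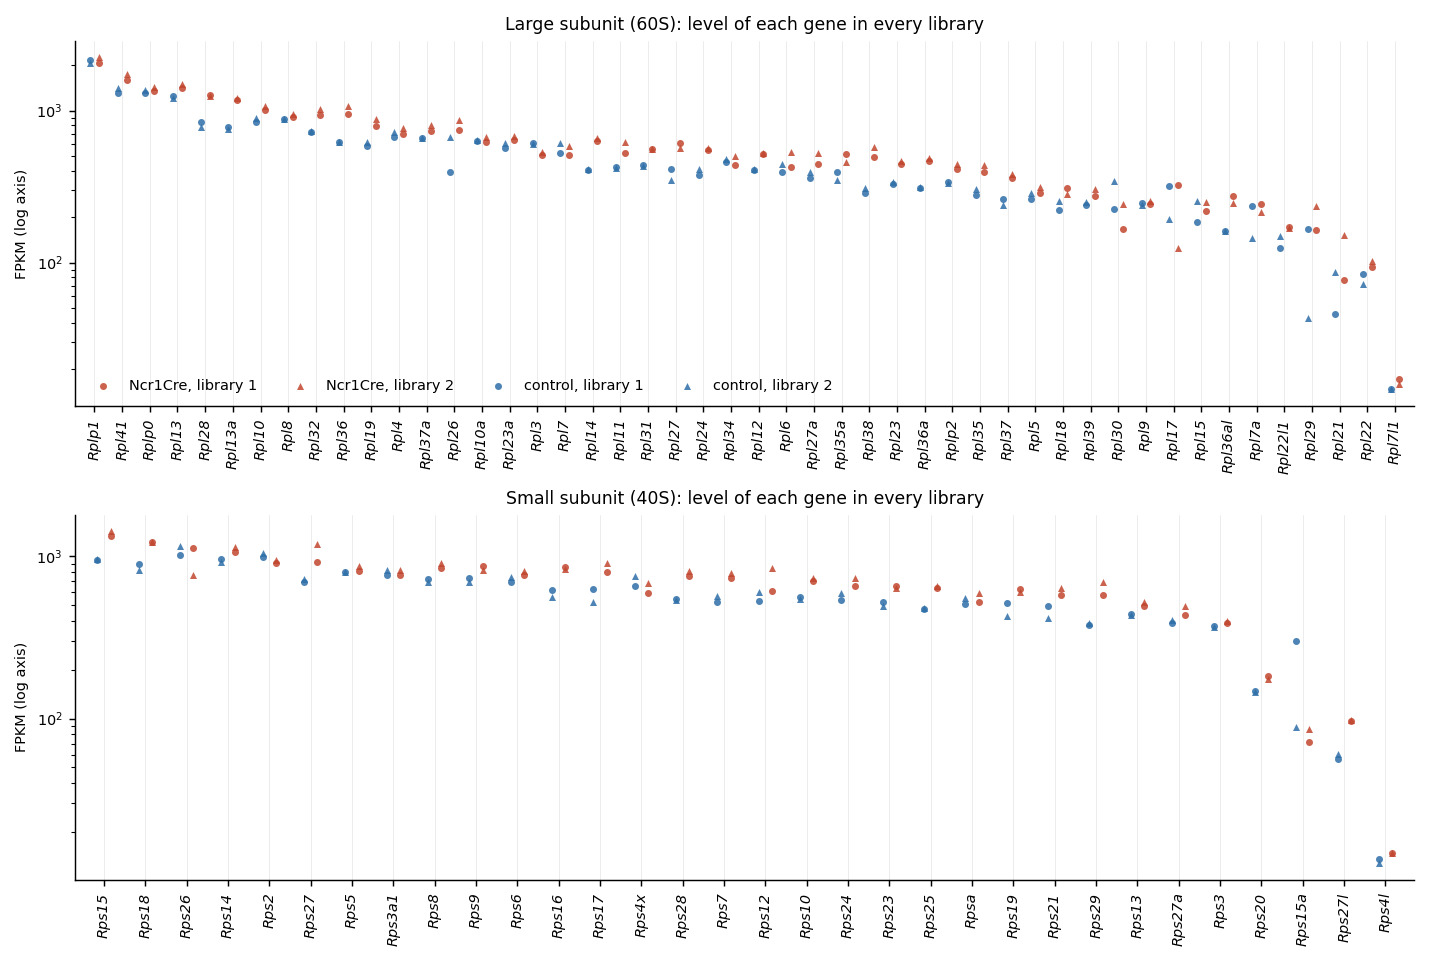
FPKM of each of 80 tested ribosomal protein genes in the 4 libraries, on a log axis, with genes ordered by their mean in each subunit (red, Ncr1Cre; blue, control; circles, replicate 1; triangles, replicate 2). Most genes lie between 100 and 2237 FPKM, while Rpl7l1 and Rps4l lie near 15, and the 2 symbols of a colour stand apart for Rpl17, Rpl21, Rpl29 and Rps15a.

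The highest member was Rplp1, a stalk protein, listed at 2045 and 2237 FPKM in Ncr1Cre and at 2153 and 2062 in the control. Rpl41, the smallest protein of the large subunit, stood at 1588 and 1739 FPKM in Ncr1Cre and 1305 and 1400 in the control. Rplp0, the stalk protein that anchors the other two, stood at 1354 and 1424 against 1309 and 1364. Rplp1 and Rplp0 overlapped between the genotypes, whereas both Ncr1Cre values of Rpl41 lay above both of the control (log2 fold change 0.30 on the log2(FPKM + 1) scale, limma adjusted p = 0.0284). At the low end of the tested members were 3 paralogs. Rps4l stood at 14.8 and 14.7 FPKM in Ncr1Cre and 13.6 and 12.8 in the control, Rpl7l1 at 17.1 and 15.9 against 14.7 and 14.8, and Rps27l at 96.7 and 97.5 against 56.2 and 60.1.

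On FPKM as deposited, more ribosomal protein genes were higher than lower in Ncr1Cre. By limma, 47 of the 82 tested members rose at an adjusted p under 0.05, where 30.9% of all 11762 tested genes rose, and 1 fell, where 17.6% of all genes fell (48.5% in both directions). The large subunit had 26 of 49 higher and 1 lower, and the small subunit 21 of 33 higher and 0 lower. Over the 82 members the median log2 fold change was 0.33, on the log2(FPKM + 1) scale, against 0.11 over all tested genes, and the members ranged from -1.04 to 1.20. Relative to that 0.11, the median was 0.22 in the large and 0.20 in the small subunit, and 62 of the 82 members lay above the all-gene median. The libraries did not overlap for 60 members that were higher and 3 that were lower, where 46.4% and 29.9% of all tested genes had no overlap in these directions. Whether the subunits differed was not tested.

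**Figure D2:**
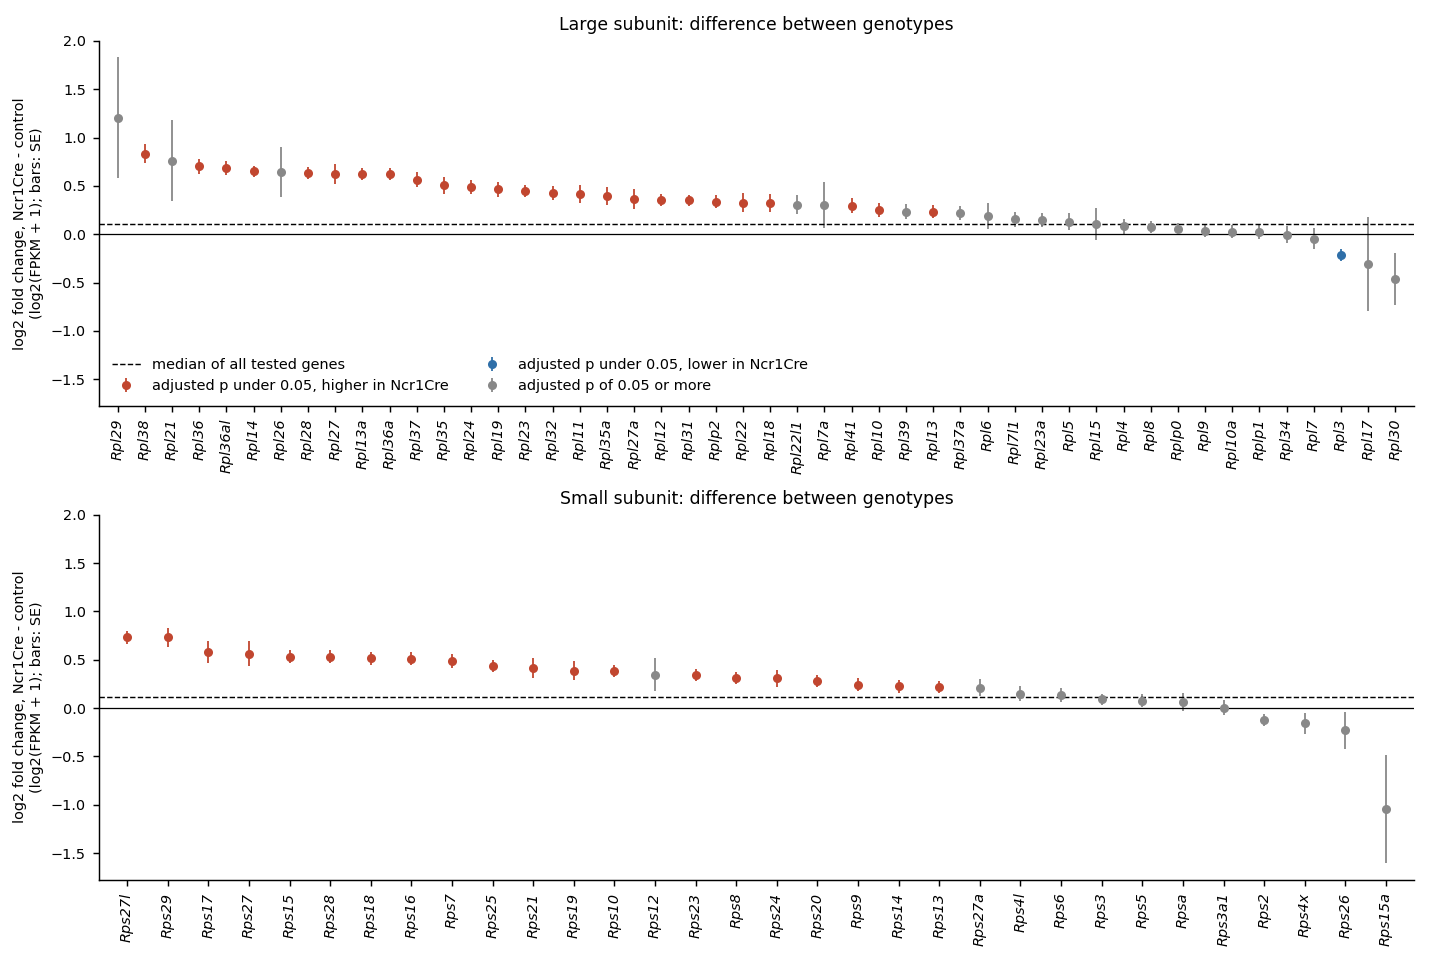
Log2 fold change (Ncr1Cre minus control, log2(FPKM + 1)) with its standard error for each of 80 tested members, ordered within each subunit; red and blue mark calls at an adjusted p under 0.05. The dashed line is the median of all tested genes, 0.11, and Rpl3 is the one member called lower.

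The number of calls depended on how the libraries were scaled. With each library scaled to the same sum of FPKM, 21 members were higher (19.7% of all tested genes were) and 7 lower (28% of all), and the median of the members was 0.08 while that of all tested genes was -0.10. Median rescaling gave 23 higher and 2 lower, beside 22.6% and 25.8% of all tested genes. Quantile normalization gave 25 higher and 8 lower, beside 22.2% and 25.7%. The members' median lay above that of all tested genes by 0.22 on FPKM as deposited, 0.19 after median rescaling, 0.18 with equal sums and 0.15 after quantile normalization. Without replicate 2 of the control, 31 members were higher and 1 lower, beside 23.7% and 12.8% of all tested genes. Without the filter on low values, 19 were higher and 0 lower by limma, beside 11.8% and 6.09%. Without the intensity trend, 37 were higher and 0 lower, beside 30.5% and 17.5%.

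**Figure D3:**
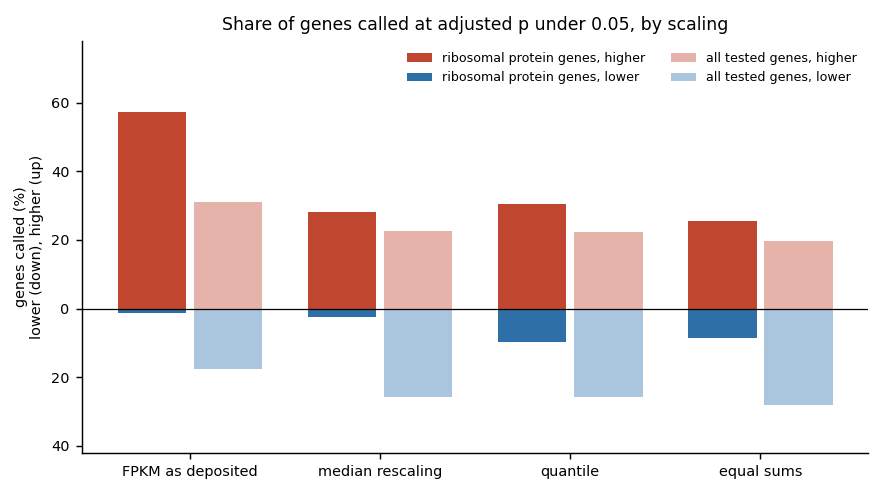
Percent of genes called higher (up) or lower (down) in Ncr1Cre under 4 scalings of the libraries, for the 82 ribosomal protein genes (dark bars) and all 11762 tested genes (light bars). The members' share called higher goes from 57.3% on FPKM as deposited to 25.6% with equal sums, beside 30.9% and 19.7% of all tested genes.

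Under all 4 scalings 19 members were called higher, 11 of the large subunit and 8 of the small. Among them were Rpl13a, Rpl14, Rpl23, Rpl27, Rpl28, Rpl36, Rpl36a, Rpl36al, Rpl37, Rpl38, Rps7, Rps15, Rps16, Rps18, Rps27l, Rps28 and Rps29. Rpl3 was called lower under all 4, and Rps2 under the 3 rescalings. The further members called lower with equal sums were Rpl10a, Rpl34, Rplp0, Rps3a1 and Rps4x.

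The largest called rise was that of Rpl38, a large-subunit protein whose loss in mice alters skeletal patterning. It was listed at 494 and 580 FPKM in Ncr1Cre and at 289 and 311 in the control, with no overlap. Its log2 fold change was 0.83 (SE 0.098, adjusted p = 0.00241), and 0.59 with equal sums. Rps27l, a paralog of Rps27 that p53 induces, stood at 96.7 and 97.5 FPKM against 56.2 and 60.1 (0.73, SE 0.068, adjusted p = 0.00118). Rps29, a zinc-binding protein of the small subunit, stood at 580 and 695 against 379 and 386 (0.73, SE 0.10, adjusted p = 0.00383). Next came Rpl36, a short large-subunit protein, at 951 and 1068 against 618 and 620 (0.70, SE 0.077, adjusted p = 0.00193). Rpl36al, a paralog of Rpl36a, stood at 275 and 247 against 161 and 163 (0.69, SE 0.076, adjusted p = 0.00196). Their values with equal sums lay between 0.44 and 0.59, and none lost its call when 1 library was left out. These 5 genes were taken from the called members without overlap, so that both Ncr1Cre libraries lie above both control libraries follows from the choice. Their means differed by 1.62-fold to 1.79-fold.

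Rpl3, which reaches toward the peptidyl transferase centre of the large subunit, was the only member called lower on FPKM as deposited. It was listed at 513 and 532 FPKM in Ncr1Cre and at 616 and 599 in the control, with no overlap. Its log2 fold change was -0.22 (SE 0.060, adjusted p = 0.0346), and -0.46 with equal sums (adjusted p = 0.00391). On FPKM as deposited the call was lost when any 1 library was left out (adjusted p from 0.0879 to 0.157). Rps2, a small-subunit protein near the mRNA entry channel, stood at 909 and 956 FPKM against 988 and 1043. Its values did not overlap, its log2 fold change was -0.12 (adjusted p = 0.181), and with equal sums it was -0.37 (adjusted p = 0.00655).

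The stalk genes did not move as one. Rplp2 rose on FPKM as deposited, from 340 and 335 FPKM to 411 and 444 (log2 fold change 0.34, SE 0.067, adjusted p = 0.0120), and its value was 0.09 with equal sums. Without replicate 2 of Ncr1Cre, replicate 1 of the control or replicate 2 of the control, its adjusted p was 0.0571, 0.0530 and 0.0600. Rplp1 and Rplp0 had log2 fold changes of 0.02 and 0.06 (adjusted p = 0.828 and 0.513), which became -0.16 and -0.13 after median rescaling, -0.23 and -0.19 with equal sums and -0.47 and -0.22 after quantile normalization. Rpsa, a small-subunit protein also known as the laminin receptor, stood at 521 and 596 FPKM against 511 and 556 and overlapped (0.06, adjusted p = 0.598, and -0.18 with equal sums).

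Members known for roles in stress signalling and disease gave a mixed picture. Rpl5 and Rpl11 bind 5S rRNA together and, outside the ribosome, the p53 regulator Mdm2. Rpl11 stood at 524 and 617 FPKM in Ncr1Cre and 428 and 421 in the control (log2 fold change 0.42, SE 0.093, adjusted p = 0.0175). Rpl5 stood at 285 and 315 against 261 and 286, with values that overlapped (0.13, SE 0.083, adjusted p = 0.245). Rps19, the gene in which Diamond-Blackfan anaemia mutations were first found, stood at 627 and 605 against 515 and 431 (0.39, SE 0.10, adjusted p = 0.0284). Rps6, the substrate of the S6 kinases, stood at 763 and 815 against 693 and 741 without passing the test (0.14, adjusted p = 0.166). Neither did Rps3, at 388 and 398 against 370 and 368 (0.09, adjusted p = 0.247), or Rps27a, a fusion of ubiquitin with a ribosomal protein, at 432 and 495 against 391 and 408 (0.21, adjusted p = 0.0985). Rpl10, which is added late in large-subunit assembly, stood at 1001 and 1073 against 845 and 898 (0.25, SE 0.070, adjusted p = 0.0360). The calls of these 3 were not steady: adjusted p was 0.0526 to 0.174 for Rpl10 with any 1 library left out, 0.0650 and 0.0714 for Rpl11 without replicate 1 or 2 of the control, and 0.0707 and 0.0872 for Rps19 without replicate 1 of Ncr1Cre or replicate 2 of the control. After rescaling to equal sums, Rpl11, Rps19 and Rpl10 were at 0.17, 0.14 and 0.00, and Rpl5, Rps6, Rps3 and Rps27a were at -0.12, -0.11, -0.16 and -0.04.

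The sequences around the annotated start were searched for unbroken runs of C and T. RefSeq promoters (GRCm38.p6, 250 bases before to 50 after the start) were matched by symbol for 64 of the 85 members, with 76 promoters in all. That build is newer than the mm9 of the deposited values. The windows span 10 bases before and 20 after the start for members called higher under all 4 scalings (Rpl38, Rpl13a, Rpl14, Rpl28, Rpl36a, Rpl36al), for Rps27 as the partner of Rps27l, and for members that did not rise (Rplp0, Rps2, Rps4x). Each reads 5′ to 3′ on the strand of the gene, and capitals mark the longest unbroken run of C and T.
Rpl38 (chr11:114668570-114668599, + strand): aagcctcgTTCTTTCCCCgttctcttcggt
Rpl13a (chr7:45128726-45128755, - strand): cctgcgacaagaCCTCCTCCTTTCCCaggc
Rpl14 (chr9:120571507-120571536, + strand): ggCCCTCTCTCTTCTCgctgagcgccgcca
Rpl28 (chr7:4792955-4792984, + strand): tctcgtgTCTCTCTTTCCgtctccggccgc
Rpl36a (chrX:134585644-134585673, + strand): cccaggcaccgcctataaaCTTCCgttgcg
Rpl36al (chr12:69184048-69184077, - strand): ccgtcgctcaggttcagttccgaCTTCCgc
Rps27 (chr3:90213629-90213658, - strand): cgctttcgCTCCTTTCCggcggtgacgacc
Rplp0 (chr5:115559457-115559486, + strand): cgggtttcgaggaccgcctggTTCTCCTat
Rps2 (chr17:24720053-24720082, + strand): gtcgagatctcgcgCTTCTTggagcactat
Rps4x (chrX:102189372-102189401, - strand): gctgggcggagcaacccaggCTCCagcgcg

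Runs of 10 to 14 pyrimidines lay at or beside the annotated start of Rpl38, Rpl13a, Rpl14 and Rpl28. The longest runs in the windows of Rpl36a and Rpl36al had 5, although all 6 genes were called higher. Windows not printed include the reverse of both. Rpl15 and Rpl7a, not called on FPKM as deposited, had runs of 17. Rpl23 and Rps28, called higher under all 4 scalings, had runs of 3 and 4. Over the 76 member promoters, 31 (40.8%) held an unbroken C or T run of at least 8 bases within 20 bases of the start, on the sense strand, against 16.05% of all 32851 promoters and 15.8% of the 11358 promoters of other tested genes. The letters CTTTCC lay within 20 bases of the start in 14.5% of member promoters, all of them on the sense strand, and on either strand in 3.68% of all promoters (1.95% on the sense strand). This motif overlaps the pyrimidine runs. Over the whole 300 bases and both strands, CCGGAAG was found in 35.5% of member promoters, 8.86% of all promoters and 16.6% of those of other tested genes. AAGATGGC was found in 10.5%, 2.75% and 4.33% of these promoters. GGGCGG was found in 60.5%, 35.7% and 63.1%, and TATAAA in 9.21%, 13.6% and 7.25%, so that for both of these the members lay close to other tested genes. Among tested members with 1 promoter entry, the 25 with a run of at least 8 had a median log2 fold change of 0.34, as did the 27 with a shorter run. Those with and without CCGGAAG stood at 0.35 (n = 21) and 0.33 (n = 31). A match or the lack of one is a description of these letters only, since an annotated start can lie some bases from the one used.

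Paralogs kept their ratio to the partner gene within the spread of replicates in most pairs. This ratio, taken within a library on FPKM as deposited, does not change when all genes of a library are scaled by a common factor. Quantile normalization is no such scaling and can change it. Rpl22l1, which can replace Rpl22 in the large subunit, was the more abundant of its pair, at 171 and 168 FPKM in Ncr1Cre and 126 and 149 in the control. Rpl22 stood at 94.0 and 103 FPKM in Ncr1Cre and 84.1 and 72.9 in the control, so that Rpl22l1 came to 182% and 163% of Rpl22 in Ncr1Cre and 149% and 205% in the control. The mean log2 ratios of this pair were 0.78 ± 0.12 and 0.81 ± 0.32 (SD, n = 2), with full overlap. In FPKM, Rpl22 rose (log2 fold change 0.33, adjusted p = 0.0431) and Rpl22l1 did not pass (0.31, adjusted p = 0.0505). With the replicate number as a block these became 0.0577 and 0.0428, and without replicate 2 of the control 0.157 and 0.0233. Rpl22 also lost its call without replicate 2 of Ncr1Cre (0.141).

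Rpl36al stood at 59.1% and 50.3% of Rpl36a in Ncr1Cre and at 52.0% and 51.9% in the control, with overlap. Both genes of this pair were higher in Ncr1Cre, since Rpl36a stood at 466 and 491 FPKM against 309 and 313 (log2 fold change 0.62, SE 0.062, adjusted p = 0.00145). Rps27l came to 10.4% and 8.17% of Rps27 in Ncr1Cre and 8.07% and 8.24% in the control, with overlap. Rps27, a zinc-finger protein of the small subunit, stood at 928 and 1195 FPKM against 696 and 729 (0.56, SE 0.13, adjusted p = 0.0196). Without replicate 1 or 2 of the control its adjusted p was 0.0801 and 0.0595. Rpl7l1 came to 3.32% and 2.71% of Rpl7 in Ncr1Cre and 2.79% and 2.41% in the control, again with overlap, and Rpl7 itself stood at 514 and 588 FPKM against 527 and 612.

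Of the 5 pairs above 0 in every library, Rps4l and Rps4x alone had ratios that did not overlap between the genotypes. Rps4l, listed at 12.8 to 14.8 FPKM, was the tested member with no protein-coding transcript under its identifier in GENCODE M21. Whether its row stands for a protein-coding gene is thus uncertain here. Rps4l stood at 2.51% and 2.17% of Rps4x in Ncr1Cre and at 2.07% and 1.69% in the control. This was a difference of 0.32 in log2 ratio (exact permutation test of 2 against 2 libraries, two-sided, p = 0.3333, the smallest possible). Rps4x, the X-linked form, stood at 591 and 680 FPKM in Ncr1Cre and 658 and 760 in the control, with overlap (log2 fold change -0.16, adjusted p = 0.279). Over these 5 pairs, exact permutation p ranged from 0.3333 to 1, and no adjustment could bring such values under 0.05. The paralogs known mainly from testis and striated muscle were at or near 0. Rpl10l was listed at 0 in all 4 libraries, and Rpl39l at 0 and 0.078 in Ncr1Cre and at 0.078 and 0 in the control. Rpl39, the partner of Rpl39l, stood at 273 and 303 FPKM against 239 and 250 (0.23, adjusted p = 0.0561, and 0.0188 with the replicate block). Rpl3l, the muscle form of Rpl3, was listed at 0.37 and 0.73 in Ncr1Cre and at 0 and 0.14 in the control. At these levels the values rest on few fragments.

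**Figure D4:**
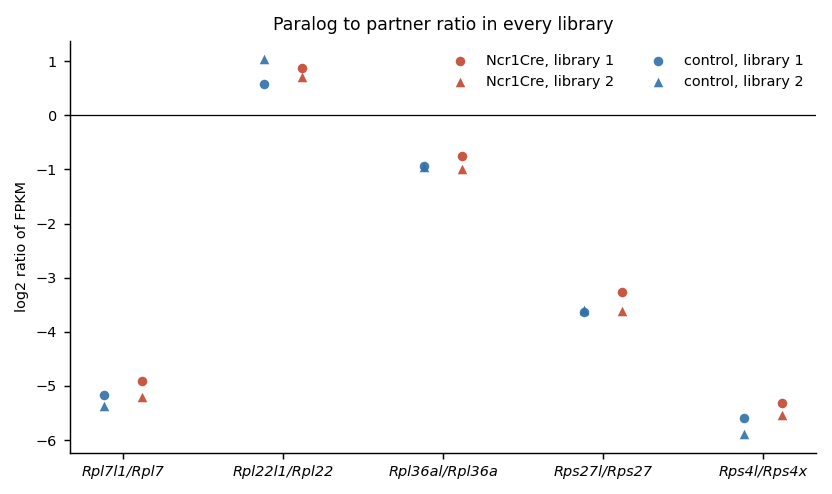
Log2 ratio of the FPKM of a paralog to that of its partner in each library, for the 5 pairs above 0 in all 4 (red, Ncr1Cre; blue, control; circles, replicate 1; triangles, replicate 2). Rpl22l1 lies above its partner in every library and the other paralogs below theirs, and the genotypes overlap in each pair but Rps4l and Rps4x.

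Not every member was measured with the same steadiness. The median fold between replicates was 1.08 in Ncr1Cre and 1.06 in the control, but 7 members had replicates at least 1.5-fold apart in a genotype, and 0 of these was called. Rps15a was listed at 71.5 and 86.7 FPKM in Ncr1Cre and at 300.2 and 88.8 in the control, with a log2 fold change of -1.04 (SE 0.56, adjusted p = 0.183) that became -1.92 without replicate 2 of the control. Rpl29 was listed at 165 and 236 FPKM in Ncr1Cre and at 166 and 43.5 in the control, with a value of 1.20 (SE 0.63, adjusted p = 0.171) that became 2.16 without replicate 1 of the control. Rpl17 stood at 323 and 125 against 318 and 194, and Rpl21 at 77.4 and 151.5 against 46.3 and 86.8. In these 4 genes the genotypes either overlap or lie close together beside the gap between replicates. The others were Rpl7a, Rpl26 and Rpl30. Rps26 differed by 1.46-fold between the Ncr1Cre replicates (1124 and 768 FPKM, against 1021 and 1164). Since 0 of the 7 unstable members was called, the 47 called higher and the 1 called lower all lie among the other 75. Wide gaps between replicates make a call unlikely, so this is no separate test. The 30.9% and 17.6% of all tested genes called higher and lower were not filtered in this way.

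The pseudogene rows show how far reads may be divided. There were 20 rows with a "-ps" symbol, and the highest, Rps12-ps3, was listed at 882 and 761 FPKM in Ncr1Cre and 836 and 789 in the control. That was 145% and 89.5% of Rps12 in Ncr1Cre and 157% and 131% in the control, and Rps12 itself stood at 609 and 850 against 531 and 604. Rpl23a-ps3 came to 11.3% to 19.4% of Rpl23a and Rpl9-ps6 to 28.8% to 34.1% of Rpl9, over the 4 libraries. Rpl10-ps3 was listed at 110 and 76.6 FPKM in Ncr1Cre and at 6.46 and 5.58 in the control, which was 10.98% and 7.14% of Rpl10 against 0.77% and 0.62%. Rps26-ps1 stood at 16.1 and 102 FPKM in Ncr1Cre, where Rps26 stood at 1124 and 768, and at 37.1 and 8.80 in the control. Values of members with such copies are uncertain. With all pseudogene rows added, the ribosomal protein share was 11.8% ± 0.35 in Ncr1Cre and 11.4% ± 0.18 in the control.

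The size of the difference went with transcript length. Length was taken as the median of a gene's protein-coding transcripts in GENCODE M21. It was known for 81 of the 82 tested members, all but Rps4l. These lengths may differ from those behind the deposited values, whose annotation the sources used here do not name. For Rps20 the median and the shortest length were both 3706 bases. The 14 members of up to 500 bases had a median log2 fold change of 0.60, and 12 of them were called higher. The 32 members of over 500 to 750 bases stood at 0.34 with 19 higher, and the 20 of over 750 to 1000 at 0.23 with 10 higher and 1 lower. The 11 members of over 1000 to 1500 bases stood at 0.19 with 4 higher, and the 4 longer ones at 0.18 with 2 higher. Spearman's rho between length and log2 fold change was -0.39 over the 81 members, which share the same 4 libraries and are not independent replicates. It was -0.65 over the 32 small-subunit and -0.21 over the 49 large-subunit members, and -0.33 with the shortest protein-coding transcript taken as the length. Bins of fewer than 20 genes are thinly filled.

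Other genes showed a similar order. Among the 11589 other tested genes with a length, rho was -0.21, and among the 1016 of them with a mean of at least 50 FPKM it was -0.33. Those abundant other genes had a median log2 fold change of 0.56 up to 500 bases (n = 43), 0.39 over 500 to 750 (n = 170), 0.26 over 750 to 1000 (n = 168), 0.15 over 1000 to 1500 (n = 189) and -0.12 above that (n = 446). From the shortest bin to the longest, 74.4%, 58.8%, 51.8%, 43.4% and 27.6% of them were called higher, beside 85.7%, 59.4%, 50%, 36.4% and 50% of the members and 47.8%, 41.4%, 41.6%, 38.8% and 25.9% of all other tested genes. In each bin up to 1500 bases the members' median lay within 0.05 of theirs. With equal sums the members' medians were 0.35, 0.09, -0.02 and -0.06 in the first 4 bins, and those of abundant other genes 0.32, 0.14, 0.02 and -0.10. Between replicates of a genotype, rho with length over the members was -0.13 in Ncr1Cre and 0.06 in the control. It was -0.37 and 0.10 over the small-subunit members, 0.03 and 0.04 over the large-subunit members, and -0.22 and -0.10 over the abundant other genes. Between level and difference there was hardly any relation, with a rho of -0.03 between the mean FPKM and the log2 fold change of the 82 members. The 19 members called higher under all 4 scalings had a median length of 543.5 bases (367.5 to 1109). The part of transcript length in the differences between the genotypes was not tested.

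**Figure D5:**
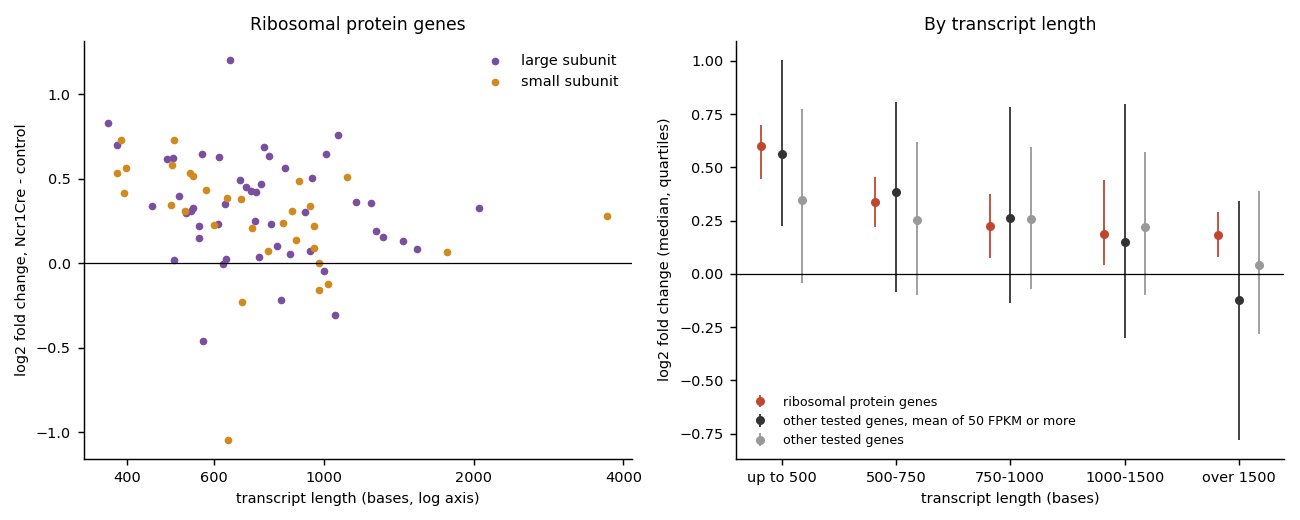
Left, log2 fold change (Ncr1Cre minus control) of 79 ribosomal protein genes against transcript length on a log axis; right, median and quartiles by length for the members (red), other genes averaging 50 FPKM or more (black) and all other tested genes (grey). The members' median goes from 0.60 up to 500 bases to 0.18 above 1500 bases, and other genes fall with length too.

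Other genes of the translation machinery were compared as lists. Of 19 further genes of the terminal oligopyrimidine class, 6 rose and 0 fell on FPKM as deposited (median log2 fold change 0.09), and 2 rose and 4 fell with equal sums, beside 19.7% and 28% of all tested genes. Fau, which encodes a ubiquitin-like protein fused to the small-subunit protein S30, stood at 992 and 934 FPKM in Ncr1Cre and 624 and 563 in the control (log2 fold change 0.70, SE 0.078, adjusted p = 0.00201). Naca, a subunit of the nascent polypeptide-associated complex, stood at 234 and 208 against 124 and 154 (0.67, SE 0.13, adjusted p = 0.0104). Its partner Btf3 stood at 164 and 169 against 137 and 135 (0.29, SE 0.060, adjusted p = 0.0150). Against the 30.9% of all tested genes that rose, the list of 19 had a similar share.

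Mitochondrial ribosomal proteins, which build the separate ribosome of mitochondria, rose in 43 of 77 and fell in 0 (median 0.45), which is 55.8% against 30.9% of all tested genes, and with equal sums 20 rose and 3 fell (median 0.23), beside 19.7% and 28% of all. Mrps6 stood at 162 and 170 FPKM in Ncr1Cre and 45.3 and 46.2 in the control (log2 fold change 1.84, SE 0.064, adjusted p = 0.000149). Mrps21 stood at 103 and 97.8 against 48.3 and 52.0 (0.99, adjusted p = 0.000623), and Mrpl14 at 40.9 and 40.4 against 23.4 and 21.7 (0.82, adjusted p = 0.00110). Of 34 genes of ribosome biogenesis and RNA polymerase I, 12 rose and 0 fell (median 0.21), and 7 rose and 3 fell with equal sums. The 35.3% and 20.6% that rose lay near the 30.9% and 19.7% of all tested genes. Nhp2 and Nop10, which belong to the complex that pseudouridylates rRNA, stood at 45.9 and 49.4 against 29.2 and 28.4, and at 30.9 and 33.8 against 18.5 and 16.4 (0.70 and 0.85, adjusted p = 0.00170 and 0.00196). Dkc1 and Gar1, of the same complex, were not called (-0.02 and 0.43, adjusted p = 0.918 and 0.133). Dkc1 averaged 5.53 FPKM against 5.66, and Gar1 14.7 against 10.7. Ebna1bp2, a large-subunit assembly factor, stood at 18.3 and 16.5 against 10.3 and 9.85 (0.73, adjusted p = 0.00275).

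Initiation factors were taken as the genes whose symbol begins with Eif and a number. By this rule the list also holds regulators of the factors, such as Eif4ebp2 and Eif2ak3. Of its 51 tested genes of 55, 12 rose and 2 fell (median 0.20), and 4 rose and 9 fell with equal sums. The 23.5% and 7.84% that rose lay below the 30.9% and 19.7% of all tested genes. Eif3g, a subunit of the factor that holds the small subunit at the mRNA, stood at 78.6 and 84.9 FPKM against 54.7 and 52.7 (0.60, SE 0.073, adjusted p = 0.00268). Eif3j2, a copy of the gene of the loosely bound subunit j, stood at 6.20 and 7.41 against 3.57 and 3.61 (0.76, adjusted p = 0.00509). Eif4g2, a scaffold of alternative initiation, stood at 92.7 and 94.7 against 125 and 123 (-0.40, SE 0.060, adjusted p = 0.00515). Of 19 regulators of ribosomal protein synthesis, 4 rose and 3 fell (median 0.00), and 1 rose and 5 fell with equal sums. The shares that rose, 21.1% and 5.26%, lay below the 30.9% and 19.7% of all tested genes. Mycn, a transcription factor that drives ribosome production, stood at 26.7 and 21.5 FPKM against 3.47 and 2.93 (log2 fold change 2.57, SE 0.14, adjusted p = 0.000294). Myc, also in this list, lay the other way without a call, at 46.6 and 42.1 FPKM against 50.5 and 60.4. Its log2 fold change was -0.31 (adjusted p = 0.0710), and -0.56 with equal sums (adjusted p = 0.0111). Eif4ebp2, a repressor of cap-dependent initiation that mTORC1 phosphorylates, stood at 17.1 and 16.1 against 24.3 and 23.7 (-0.51, SE 0.076, adjusted p = 0.00519). Its fall is counted both here and in the Eif list, but once in the related lists together. Rraga, a GTPase through which amino acids activate mTORC1, stood at 26.3 and 25.3 against 33.1 and 32.3 (-0.33, adjusted p = 0.0152). The list that held the largest share of higher genes on FPKM as deposited was that of mitochondrial ribosomal proteins, near the share of the cytosolic ones.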

How the data were processed

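The authors deposited 1 FPKM value per gene and library, made with Cufflinks on mm9 per the submitters' processing notes. The sources used here name no aligner or annotation and do not say how multiply mapped reads were counted. The rest of the genotype and the single values of 2 tested members are not reported here, though these members stay in the counts and medians. Depth is not stated. Low values of genes with 1 GENCODE M21 transcript came in steps of whole fragments in 36.4% to 39.7% of cases (within 0.02 fragments), which implied 20950000 to 38540000 fragments per library, and a median of 7228 to 12867 fragments per tested member. At these counts the counting error of a typical member is about 1.18% or less, so the spread between replicates is the larger error. These totals are estimates, so no count test was run.

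Genes averaging 1 FPKM or more (11762) were tested with limma 3.58.1 (R 4.3.3) with an intensity trend, two-sided. Values entered as log2(FPKM + 1). Adjustment was by Benjamini-Hochberg over all genes tested, with calls at an adjusted p under 0.05. Fold changes on this scale understate the change of low genes. Single values were compared with exact permutation tests. Other fits used other scalings, a pseudocount of 0.1, other filters, no trend, the replicate number as a block and 1 library left out.

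The members, lists and tests were chosen with earlier results of these data known, and the length bins and the 1.5-fold limit on replicates after seeing the values. Genes named with values are the paralog pairs, stalk and other preset genes, the 6 largest called rises and falls without overlap, the 3 highest and 3 lowest tested members, members listed at 0 in some libraries and those with the 3 largest replicate differences. Of each related list, up to 3 with the smallest p were named. Rps2, the further members called after rescaling and the members named for windows not printed were named after their values were seen. So were Rps20, Myc, Dkc1 and Gar1. Sequences are RefSeq's.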

Additional observations from a re-analysis of the deposited data

How the results depend on the processing

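With 2 libraries a genotype, limma borrows the spread from other genes, and exact tests cannot go below 0.3333. On FPKM as deposited, 5709 genes were called in all. Fits with 1 library left out rest on 1 library in a genotype, and how many of these genes kept their call was not counted. Members called higher (47) came to 23 after median rescaling, 21 with equal sums, 25 after quantile normalization and 19 without the filter. Members called lower (1) came to 2, 7, 8 and 0 in that order, to 0 without the intensity trend and to 4 with the replicate block. Large-subunit genes called higher (26) came to 13 in each of these 4 fits, and those called lower (1) to 4 with equal sums, 5 after quantile normalization, 0 without the filter or the trend and 2 with the block. Small-subunit genes called higher (21) came to 10, 8, 12 and 6 in the same order, and those called lower (0) to 1 after median rescaling, 3 with equal sums, 3 after quantile normalization and 2 with the block. With 1 library left out, 31 to 44 members were higher and 0 to 2 lower, 20 to 26 and 0 to 1 of the large and 11 to 18 and 0 to 1 of the small subunit. These counts stand here without the shares of all genes, so they do not show a difference from other genes. Without replicate 1 or 2 of Ncr1Cre, the members' median log2 fold change lay 0.26 and 0.17 above that of all tested genes. Without replicate 1 or 2 of the control, it lay 0.19 and 0.20 above. The replicate block gave 54 members higher (6004 genes called in all, and 32.4% of all genes higher and 18.6% lower). Rpl21, Rpl39, Rps27a, Rps6 and Rpl22l1 passed as higher only under it or another alternative. Rps4x passed only under alternatives too, but as lower, like other members called lower only after rescaling. The replicate numbers mark no shared animal or day in the labels, and deviations of same-numbered libraries correlated at 0.16 over all genes and 0.22 over the members.

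The related lists together had 77 higher and 4 lower, which came to 44 and 17 after median rescaling, 34 and 22 with equal sums, 50 and 16 after quantile normalization, 40 higher without the filter, and 48 to 72 higher and 2 to 6 lower with 1 library left out. Of the 194 tested genes of these lists, 39.7% were higher on FPKM as deposited, beside 30.9% of all tested genes. The shares were 22.7% beside 22.6% after median rescaling, 17.5% beside 19.7% with equal sums and 25.8% beside 22.2% after quantile normalization. Shares called lower were 2.06%, 8.76%, 11.3% and 8.25% in that order, beside 17.6%, 25.8%, 28% and 25.7%. Without the filter, 20.2% were higher, beside 11.8%. The median log2 fold change of the members (0.33) was 0.14 after median rescaling, 0.080 with equal sums and 0.095 after quantile normalization. Their share of the summed FPKM was 17.2% in Ncr1Cre and 15.9% in the control without the 50 highest other genes, 12.1% and 11.4% without mitochondrially encoded genes, and 11.4% in the control with pseudogene rows.

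From positive to negative turned 16 members after median rescaling, 24 with equal sums and 18 after quantile normalization, among them 0, 4 and 1 that had been called higher. Those 4 were Rpl13, Rps9, Rps13 and Rps14, with values of 0.22 to 0.24 as deposited, chosen after their values were seen. After median rescaling and with equal sums, the log2 fold change was -0.021 and -0.080 for Rpl7l1, -0.024 and -0.082 for Rps4l, -0.13 and -0.19 for Rplp0, -0.16 and -0.23 for Rplp1, -0.12 and -0.18 for Rpsa, -0.053 and -0.12 for Rpl5, -0.048 and -0.11 for Rps6, and -0.094 and -0.16 for Rps3. Quantile normalization gave -0.0048 for Rps4l, -0.22 for Rplp0, -0.47 for Rplp1, -0.16 for Rpsa, -0.072 for Rpl5, -0.042 for Rps6, -0.19 for Rps3 and -0.069 for Rps27a. With equal sums Rpl39 was at -0.014 and Rps27a at -0.036. With 1 library left out, Rpl7 ranged from -0.15 to 0.061, Rplp1 from -0.043 to 0.086, Rpsa from -0.033 to 0.16, Rpl17 from -0.98 to 0.37 and Rps26 from -0.50 to 0.045. The cause of these changes was not tested.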
